A study of Rattus norvegicus with 12 samples.

Results

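The lipases examined here were 8 genes taken by symbol from a table of 31177 genes and loci: Lipm, Lipa, Lipe, Lipg, Lpl, Pnpla2, Mgll and Pla2g4e. Each symbol matched 1 row, and all 8 had enough counts to be tested among 18850 genes. Brain RNA was sequenced in 12 libraries, 4 each from an Alzheimer's disease model given a high-fat diet (AD-HFD), the same model without that diet (AD) and a control group called Sham. The labels do not state how the model was made, what the sham procedure was, or the strain, sex, age, brain region and length of the diet. They speak of mice, whereas the organism field names rat and the identifiers are rat Ensembl ones, so the genes are treated as rat genes. Animals fed the diet without the model were not analysed here. Separate animals are not stated for the libraries, and p-values therefore cover the spread between libraries, which may be technical.

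Lipases cut fatty acids from stored or circulating lipids. Inside cells the enzymes made by Pnpla2, Lipe and Mgll act in sequence on triglyceride, diglyceride and monoglyceride, while the enzymes made by Lpl and Lipg work on lipoproteins at the vessel wall and that of Lipa in the lysosome. In brain the Mgll enzyme also breaks down the main endocannabinoid, and lipoprotein lipase is made by neurons and by microglia. Lipm belongs to the acid lipase family of Lipa and is known in human from differentiating skin cells.

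The family was chosen by the measured difference of Lipm between AD-HFD and AD, since Lipm was 1 of 2 genes called there in an earlier look at these libraries. All values of AD-HFD against AD, and all values of Lipm, are therefore given as a description. The other 7 genes were tested in AD-HFD against Sham and in AD against Sham, which share their libraries with that contrast and with each other. A gene was called when its p from the quasi-likelihood test of edgeR, adjusted over all 18850 genes by the Benjamini-Hochberg method, was under 0.05. Levels are in CPM, the library-scaled count unit, and differences are log2 fold changes ± SE.

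Total counts ran from 26668974 to 35351792 per library, and 3 counts corresponded to 0.0875 to 0.109 CPM. The libraries differed in region and cell type markers within groups. Summed over 8 thalamus markers, levels were 94.1 to 163 CPM in AD-HFD, 140 to 1900 CPM in AD and 57.3 to 128 CPM in Sham, and within AD the library AD-3 was the one at 140 CPM. Choroid plexus markers (7 genes) summed to 10400 CPM in AD-HFD-1, 553 CPM in AD-HFD-2, 4610 CPM in Sham-2 and 4520 CPM in Sham-3, but to no more than 31.4 CPM in any other library. Neuronal markers (7 genes) summed to 1510 to 6530 CPM in AD-HFD, 5060 to 5980 CPM in AD and 7440 to 9510 CPM in Sham. In tissue RNA of this kind, fewer cells of a type and less RNA per cell cannot be told apart.

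Lipm was present at a low level in every AD-HFD library and close to absent in AD. It stood at 2.66, 2.07, 2.34 and 3.76 CPM in AD-HFD-1 to AD-HFD-4. AD-1, AD-2 and AD-4 had 0 counts, which allows up to 0.104, 0.0875 and 0.109 CPM, and AD-3 had 5 counts or 0.154 CPM. Sham-1 to Sham-4 stood at 0.847, 0.319, 0.204 and 0.301 CPM. The 3 groups did not overlap, and the order of their levels was AD-HFD, then Sham, then AD. The gap between AD-3 and Sham-3, the closest libraries of neighbouring groups, was 5 counts against 6 counts.

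Mean levels of Lipm were 2.71 ± 0.74 CPM in AD-HFD, 0.0385 ± 0.0769 CPM in AD and 0.418 ± 0.291 CPM in Sham (SD, n = 4 each). The log2 difference was 5.93 ± 0.767 for AD-HFD against AD, 2.65 ± 0.517 for AD-HFD against Sham and -3.28 ± 0.997 for AD against Sham. Over all 4 AD libraries the fitted ratio of AD-HFD to AD was 60.9. Set against only the 3 AD libraries without counts, which were picked for that, the lower bound was 81.5-fold. Its floor of 3 counts was taken over those libraries together, not per library, and it does not bound the difference between the groups. With AD-3 as the only AD library, the difference of AD-HFD against AD was 4.10 and that of AD against Sham -1.46. Thalamus markers summed to 1900 CPM in AD-1, 447 CPM in AD-2 and 1230 CPM in AD-4, against 140 CPM in AD-3. Excitatory neuron markers of cortex and hippocampus summed to 360, 73.1 and 243 CPM in the 3 without Lipm counts, against 1320 CPM in AD-3. In AD-HFD these sums were 94.1 to 163 and 407 to 2010 CPM, and in Sham 57.3 to 128 and 2090 to 2840 CPM. AD-4 also had 1880 CPM of hypothalamus markers. The part of brain region in the Lipm values was not tested. Keratinocyte markers (5 of 7 in the table) summed to 3.62 to 5.86 CPM in AD-HFD, 3.64 to 5.75 CPM in AD and 3.45 to 5.72 CPM in Sham, and these ranges overlapped.

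In the RefSeq annotation of rat, Lipm lies between Lipn and Ankrd22. Of other genes named for this family, Lipk was at no more than 0.0956 CPM and Lipn at no more than 0.191 CPM in any library, Lipf had no counts, and Lipo1 reached 0.362 CPM in AD-HFD-1.

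**Figure D1:**
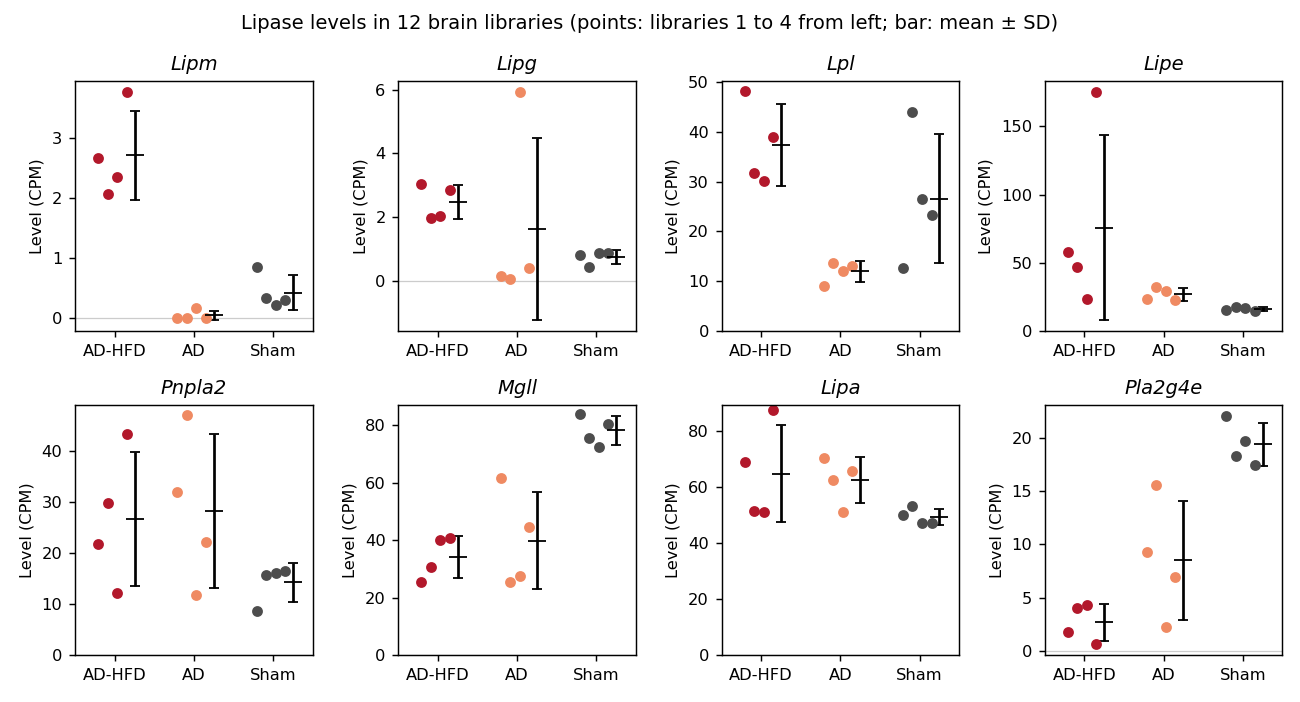
Levels of the 8 lipases in CPM (vertical axes, linear, 1 per gene) in AD-HFD, AD and Sham, with 1 point per library and the mean ± SD beside each group. Lipm stands at 2.07 to 3.76 CPM in AD-HFD and at no more than 0.154 CPM in AD, and Mgll and Pla2g4e are highest in the 4 Sham libraries.

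RefSeq promoter windows, 250 bases before to 50 after the start of the gene, were found for 6 of the 8 genes (all but Lipe and Lpl). They are shown for Lipm, around which the family was built, and for Mgll, the gene called in both comparisons with Sham.
Lipm promoter, GRCr8 chr1:241031132-241031431, plus strand: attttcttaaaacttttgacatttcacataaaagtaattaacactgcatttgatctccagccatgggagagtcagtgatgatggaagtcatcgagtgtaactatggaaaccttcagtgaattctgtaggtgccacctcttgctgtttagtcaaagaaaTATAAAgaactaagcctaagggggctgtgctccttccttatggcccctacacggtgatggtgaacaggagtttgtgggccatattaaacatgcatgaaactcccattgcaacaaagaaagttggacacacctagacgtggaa
Mgll promoter, GRCr8 chr4:122749186-122749485, plus strand: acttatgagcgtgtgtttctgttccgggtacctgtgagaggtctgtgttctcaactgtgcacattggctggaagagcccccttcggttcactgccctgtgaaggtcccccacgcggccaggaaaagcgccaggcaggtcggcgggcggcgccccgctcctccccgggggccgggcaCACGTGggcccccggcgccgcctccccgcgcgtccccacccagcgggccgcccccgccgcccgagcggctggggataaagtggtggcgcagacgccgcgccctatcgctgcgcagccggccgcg
Capitals mark matches, on either strand, to a TATA box (TATAAA), an E-box (CACGTG), a nuclear receptor half-site (AGGTCA), an AP-1 element (TGANTCA), a cyclic AMP response element (TGACGTCA) or an NR4A element (AAAGGTCA, which contains the half-site). The Lipm window held TATAAA, 92 bases before the start, as did 14.2% of 33469 rat windows of this length. The Mgll window held CACGTG, 74 bases before the start. The Lipg window held it too, at position -177 relative to the start, and so did 6.42% of all windows.

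The lipoprotein lipase gene Lpl, whose enzyme frees fatty acids from circulating triglyceride, had its highest mean in AD-HFD. It stood at 48.2, 31.8, 30.2 and 38.9 CPM in AD-HFD-1 to AD-HFD-4, at 9.11, 13.7, 12.1 and 13.0 CPM in AD-1 to AD-4 and at 12.6, 43.9, 26.6 and 23.2 CPM in Sham-1 to Sham-4. Every AD-HFD library lay above every AD library, while the Sham libraries spanned both ranges. Means were 37.3 ± 8.2 CPM in AD-HFD, 12.0 ± 2.02 CPM in AD and 26.6 ± 13.0 CPM in Sham (SD, n = 4 each).

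The log2 difference of Lpl in AD-HFD against AD was 1.64 ± 0.318. Neither comparison with Sham passed by edgeR, with 0.49 ± 0.308 for AD-HFD (adjusted p = 0.236) and -1.15 ± 0.315 for AD (adjusted p = 0.0518). The AD value lay just outside the threshold. It was called in only 5 of 25 alternative fits. These were DESeq2 (-1.14, adjusted p = 0.00862), AD-HFD-3 and AD-HFD-4 left out (adjusted p = 0.0447), and the fits without Sham-1 (-1.34, adjusted p = 0.0338), AD-HFD-3 (adjusted p = 0.0398) or AD-HFD-4 (adjusted p = 0.0495). Among the fits without a call were limma voom (adjusted p = 0.119), the replicate block (adjusted p = 0.093) and the fit without Sham-2 (-0.82, adjusted p = 0.114). Sham-2 and Sham-3, the Sham libraries with choroid plexus markers, were also the highest for Lpl. With these and AD-HFD-1 and AD-HFD-2 left out, Lpl was 0.93 ± 0.354 in AD-HFD against Sham and -0.60 ± 0.301 in AD against Sham. That fit of few libraries called 0 of 19522 genes in AD-HFD against Sham and 4 in AD against Sham, so nothing is read from its calls. The part of choroid plexus in the Lpl values was not tested.

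Lipg, which makes endothelial lipase, an enzyme acting on the phospholipids of high-density lipoprotein, was higher in every AD-HFD library than in any Sham library. Its levels were 3.02, 1.98, 2.03 and 2.83 CPM in AD-HFD-1 to AD-HFD-4 and 0.789, 0.415, 0.851 and 0.871 CPM in Sham-1 to Sham-4. In AD it was split, with 5.91 CPM in AD-3 and 0.139 CPM in AD-1, 0.0583 CPM in AD-2 and 0.399 CPM in AD-4. AD-3 was thus the highest of all 12 libraries and the other AD libraries were below every Sham library.

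The comparisons of Lipg with Sham did not pass by edgeR, at 1.75 ± 0.951 for AD-HFD (adjusted p = 0.171) and 1.17 ± 0.976 for AD (adjusted p = 0.5). Without AD-3 the AD-HFD value was the same with a smaller error, 1.75 ± 0.349, and was called (adjusted p = 0.00368), while the AD value was -1.93 ± 0.563, in the opposite direction and called (adjusted p = 0.0461). The difference of AD-HFD against AD was 0.57 ± 0.867 with all libraries and 3.67 ± 0.492 without AD-3.

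Among the enzymes of stored fat, Pnpla2, which makes adipose triglyceride lipase for the first step, varied within the model groups and passed neither comparison with Sham. It stood at 21.7, 29.8, 12.1 and 43.3 CPM in AD-HFD-1 to AD-HFD-4, at 31.9, 47.2, 11.8 and 22.1 CPM in AD-1 to AD-4 and at 8.62, 15.7, 16.1 and 16.5 CPM in Sham-1 to Sham-4. The 3 ranges overlapped, and AD-HFD-3 and AD-3 lay within the Sham range. The log2 differences from Sham were 0.91 ± 0.436 for AD-HFD (adjusted p = 0.124) and 0.99 ± 0.437 for AD (adjusted p = 0.192) by edgeR. The first was called in 1 of 25 alternative fits, the one without AD-HFD-3 (1.15, adjusted p = 0.0403). That fit called 8615 of 19305 genes in AD-HFD against Sham, where the main fit called 6162 of 18850. With AD-3 as the only AD library the second was -0.28. Oligodendrocyte markers (7 genes) summed to 31500, 29600, 6630 and 47500 CPM in AD-HFD-1 to AD-HFD-4, to 36900, 45600, 12000 and 17600 CPM in AD-1 to AD-4 and to 8290, 16200, 20100 and 9800 CPM in Sham-1 to Sham-4. In both model groups the library with the most of these markers had the most Pnpla2 and the library with the least had the least. In Sham, Sham-1 was lowest for both, but Sham-3 had the most of these markers and Sham-4 the most Pnpla2. The part of oligodendrocytes in the Pnpla2 values was not tested.

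Lipe, which makes hormone-sensitive lipase for the second step, rose in AD-HFD against Sham. It was at 57.5, 47.0, 23.4 and 175 CPM in AD-HFD-1 to AD-HFD-4, at 23.0, 32.3, 29.0 and 22.3 CPM in AD-1 to AD-4 and at 14.9, 17.2, 17.0 and 14.2 CPM in Sham-1 to Sham-4. All model libraries were above all Sham libraries, while AD-HFD and AD overlapped through AD-HFD-3. Means were 75.7 ± 67.7 CPM in AD-HFD, 26.6 ± 4.81 CPM in AD and 15.8 ± 1.53 CPM in Sham (SD, n = 4 each). The rise in AD-HFD was 2.26 ± 0.477 on the log2 scale (adjusted p = 0.00648, edgeR), while leaving out AD-HFD-4 gave 1.43 ± 0.264, also called (adjusted p = 0.00697).

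In AD against Sham, Lipe did not pass the edgeR test (0.75 ± 0.462, adjusted p = 0.35). It was called when only the AD and Sham libraries were fitted (0.77 ± 0.160, adjusted p = 0.0189) and with AD-HFD-3 and AD-HFD-4 left out (0.75 ± 0.158, adjusted p = 0.0146). The difference of AD-HFD against AD was 1.5 ± 0.464. Endothelial markers (6 of 8 in the table) were high in the same library as Lipe: they summed to 2090 CPM in AD-HFD-4 and 234 to 575 CPM in the other AD-HFD libraries, against 242 to 315 CPM in AD and 186 to 250 CPM in Sham. Adipocyte markers (6 of 6) summed to 2.59 to 6.89 CPM in AD-HFD, 3.08 to 4.4 CPM in AD and 1.2 to 6.52 CPM in Sham. Among them Lep was at 0 in all groups and Plin1 at 0 in AD-HFD and Sham. Plin1 was present in AD, at 1.39 CPM in AD-1 and 1.78 CPM in AD-2. Adipoq was present at 3.91 CPM in AD-HFD-1, 5.18 CPM in Sham-2 and 4.39 CPM in Sham-3. The part of endothelium in the Lipe values was not tested. The RefSeq annotation has another gene, LOC120096895, overlapping Lipe. With the strand setting of the counting not given, reads of the pair cannot be told apart.

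Mgll, which makes monoacylglycerol lipase for the last step, fell in both model groups. It stood at 25.5, 30.5, 40.0 and 40.6 CPM in AD-HFD-1 to AD-HFD-4, at 61.5, 25.5, 27.6 and 44.6 CPM in AD-1 to AD-4 and at 84.1, 75.7, 72.5 and 80.6 CPM in Sham-1 to Sham-4. No model library reached the lowest Sham library, and AD-HFD overlapped with AD. Means were 34.1 ± 7.39 CPM in AD-HFD, 39.8 ± 16.8 CPM in AD and 78.2 ± 5.14 CPM in Sham (SD, n = 4 each).

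By edgeR the log2 difference of Mgll was -1.2 ± 0.263 in AD-HFD against Sham (adjusted p = 0.00751) and -0.98 ± 0.262 in AD against Sham (adjusted p = 0.0482). The AD call lay at the threshold and was kept in 10 of 25 alternative fits. It was lost without AD-2, AD-3 or AD-4, without any 1 Sham library and without AD-HFD-1 or AD-HFD-2, its adjusted p reached 0.266 over all alternatives, and its value stayed between -1.51 and -0.78. The AD-HFD call was kept in 24 of 25. AD-HFD differed from AD by -0.22 ± 0.260.

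**Figure D2:**
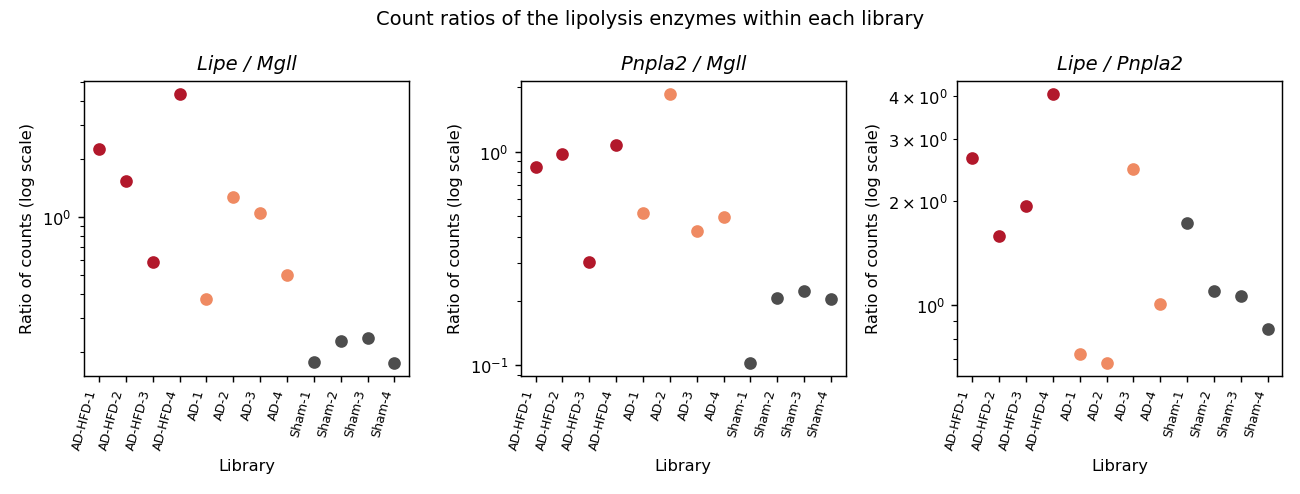
Ratio of the counts of Lipe to Mgll, Pnpla2 to Mgll and Lipe to Pnpla2 (vertical axes, log scale) in each of the 12 libraries. The Lipe to Mgll ratio is 0.585 to 4.31 in AD-HFD and 0.375 to 1.27 in AD, above the 0.176 to 0.235 of Sham.

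Ratios of counts within a library were compared for these 3 enzymes, a choice made after the values were seen and given with no test. Gene length enters each ratio equally in all libraries, so only differences between libraries are read. The Lipe to Mgll ratio averaged 2.17 ± 1.58 in AD-HFD, 0.798 ± 0.430 in AD and 0.204 ± 0.0316 in Sham (SD, n = 4 each). The Pnpla2 to Mgll ratio was 0.304 to 1.07 in AD-HFD, 0.425 to 1.85 in AD and 0.103 to 0.222 in Sham. Both ratios separated every model library from every Sham library. For Lipe to Mgll this follows from the levels, since each gene alone separated these libraries, in opposite directions. For Pnpla2 to Mgll, Mgll alone already separated them. How many other gene pairs do so was not counted. The Lipe to Pnpla2 ratio did not separate model from Sham libraries, at 1.58 to 4.04 in AD-HFD, 0.684 to 2.47 in AD and 0.856 to 1.73 in Sham.

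Lipa, which makes the lysosomal acid lipase that cuts cholesteryl esters and triglyceride, was called in neither comparison with Sham. It stood at 68.9, 51.3, 50.9 and 87.2 CPM in AD-HFD-1 to AD-HFD-4, at 70.2, 62.4, 51.1 and 65.6 CPM in AD-1 to AD-4 and at 50, 53.0, 47.0 and 47.0 CPM in Sham-1 to Sham-4. The groups overlapped, with AD-HFD-2, AD-HFD-3 and AD-3 below Sham-2. Its log2 differences from Sham were 0.39 ± 0.179 in AD-HFD (adjusted p = 0.11) and 0.34 ± 0.179 in AD (adjusted p = 0.274) by edgeR, and AD-HFD against AD was 0.05 ± 0.179. In AD-HFD against Sham Lipa was called in 1 of 25 alternative fits, the one without AD-HFD-3 (0.49, adjusted p = 0.0421). That fit called 8615 of 19305 genes, where the main fit called 6162 of 18850.

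Pla2g4e, a cytosolic phospholipase A2 whose mouse enzyme makes the precursors of N-acylethanolamines, fell in AD-HFD. Its levels were 1.71, 3.98, 4.31 and 0.665 CPM in AD-HFD-1 to AD-HFD-4, 9.28, 15.6, 2.18 and 6.93 CPM in AD-1 to AD-4 and 22.1, 18.3, 19.8 and 17.5 CPM in Sham-1 to Sham-4. The order was Sham, then AD, then AD-HFD. Sham did not overlap with either model group, while AD-3 lay within the AD-HFD range. Means were 2.67 ± 1.77 CPM in AD-HFD, 8.49 ± 5.57 CPM in AD and 19.4 ± 2 CPM in Sham (SD, n = 4 each).

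The fall of Pla2g4e in AD-HFD against Sham was -2.86 ± 0.575 on the log2 scale (adjusted p = 0.00532, edgeR), and it was kept in 24 of 25 alternative fits with values from -3.19 to -2.54. AD against Sham, at -1.19 ± 0.531, did not pass (adjusted p = 0.196). AD-HFD against AD was -1.67 ± 0.565, and 0.30 with AD-3 as the only AD library. Cortical and hippocampal excitatory neuron markers (8 genes) summed to 407 to 2010 CPM in AD-HFD, 73.1 to 1320 CPM in AD and 2090 to 2840 CPM in Sham. Within AD, AD-2 had the least of these markers, 73.1 CPM, and the most Pla2g4e, and AD-3 had the most, 1320 CPM, and the least Pla2g4e. General neuron markers were lowest in AD-HFD-4, at 1510 CPM, the library with the least Pla2g4e and, at 40.6 CPM, the most Mgll within AD-HFD. The part of neuronal content in the Mgll and Pla2g4e values was not tested.

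**Figure D3:**
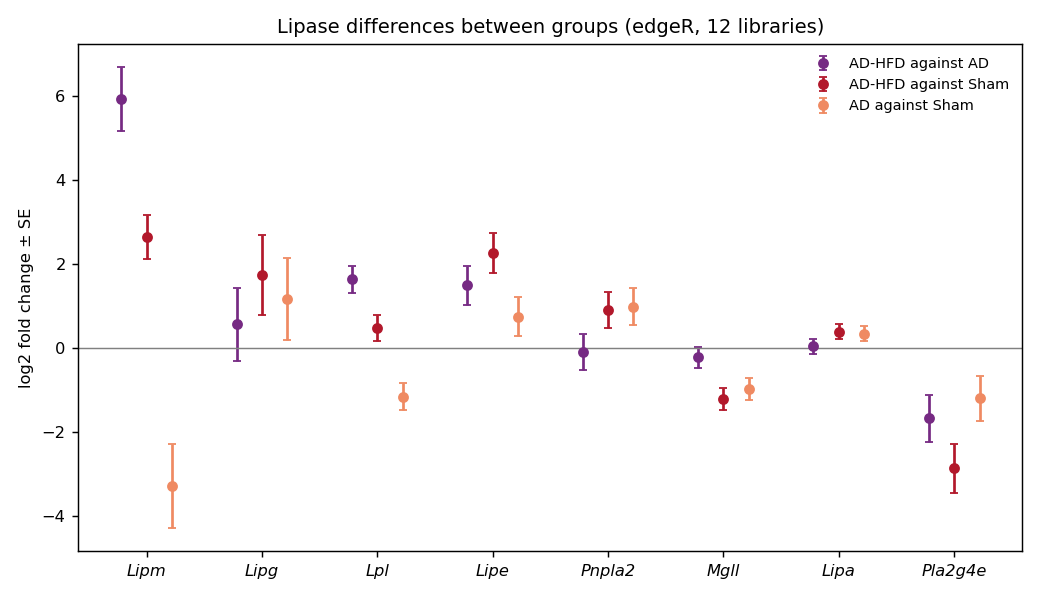
Log2 fold change ± SE (vertical axis) of the 8 lipases in AD-HFD against AD, AD-HFD against Sham and AD against Sham, from 1 edgeR fit of 12 libraries. Mgll and Pla2g4e lie below 0 in both comparisons with Sham, Lipe lies above 0 in both, and Lipm and Lpl lie above 0 in AD-HFD against Sham and below 0 in AD against Sham.

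Counted over the family, 1 of the 8 genes was called in AD-HFD against AD, which was Lipm, against 0.0106% of all genes, and nothing is read from this since the contrast chose the family. Lipm and Lpl were the 2 of 8 genes whose AD-HFD and AD libraries did not overlap, against 5.46% of all genes (2.72% higher and 2.74% lower in AD-HFD). Nothing is read from this either, since Lipm was chosen by that difference. Without Lipm the count was 1 of 7, which was Lpl. In AD-HFD against Sham 3 of the 7 other lipases were called, Lipe higher and Mgll and Pla2g4e lower, against 32.7% of all genes (19.7% higher and 12.9% lower). These 3 and Lipg, 4 of 7, did not overlap between AD-HFD and Sham, against 35.1% of all genes (18.9% higher and 16.2% lower). In AD against Sham 1 of 7 was called, Mgll, against 6.23% of all genes (3.07% higher and 3.16% lower). Lipe, Mgll and Pla2g4e, 3 of 7, did not overlap between AD and Sham, against 21.6% of all genes (10.3% higher and 11.3% lower). With 7 genes these counts do not set the family apart from the background. Median log2 differences of the 7 were 0.05, 0.49 and 0.34 in AD-HFD against AD, AD-HFD against Sham and AD against Sham, beside 0.04, 0.03 and 0.06 over all genes.

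**Figure D4:**
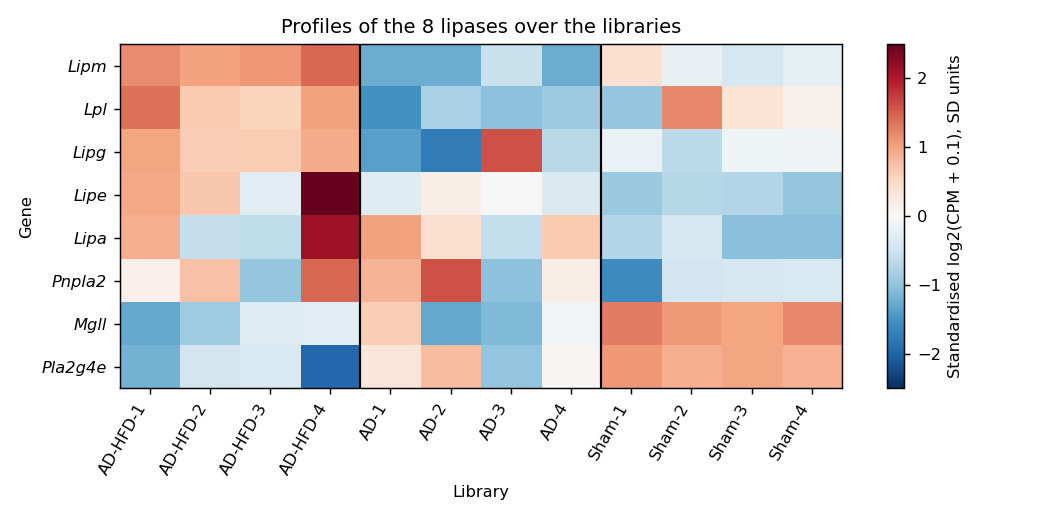
Standardised log2(CPM + 0.1) of the 8 lipases (rows) in 12 libraries (columns, AD-HFD, AD and Sham), where colour gives the distance from the gene's mean in SD units. Lipm and Lpl are above their means in every AD-HFD library and below them in every AD library, Mgll and Pla2g4e are above theirs in every Sham library, and Lipe and Lipa peak in AD-HFD-4.

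The shapes of the profiles over the 12 libraries were compared by the root mean square difference of standardised log2(CPM + 0.1), which is 0 for the same shape. Within the family the closest pairs were Lipe with Lipa (0.67), Lipm with Lpl (0.69), Lipa with Pnpla2 (0.73) and Lipm with Lipg (0.74), and Mgll was closest to Pla2g4e (0.79). The farthest pair was Lipe and Pla2g4e (1.85). Among the other genes with a symbol and a mean of at least 1 CPM, the 5 closest to Lipm were Ell2 (0.377), Cpne8 (0.399), Vrk1 (0.401), Pan3 (0.403) and Cxadr (0.437). Cpne8 stood at 61.2 to 83.5 CPM in AD-HFD, 8.55 to 36.7 CPM in AD and 23.6 to 40.9 CPM in Sham.

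The likeness of Lipe was closer. Its 3 nearest genes were Hspa12b (0.13), Helz2 (0.141) and Vwf (0.152), of which Vwf makes von Willebrand factor in endothelium and stood at 968 CPM in AD-HFD-4, at 63.4 to 171 CPM in the other AD-HFD libraries, at 56.0 to 69.0 CPM in AD and at 28.4 to 42.1 CPM in Sham. The nearest to Lipg were Wdr5 (0.247), Rrp15 (0.259) and Klf10 (0.26), and to Pla2g4e Rnf180 (0.188), Erbb4 (0.204) and Tcte1 (0.213). For Lpl they were Krt8 (0.405), Msx1 (0.432) and Fzd7 (0.48), and for Mgll the clock gene Nr1d1 (0.328), Gnb1 (0.355) and Pcdhb19 (0.375). For Lipa they were Nostrin (0.292), Prkch (0.372) and St8sia4 (0.374), and for Pnpla2 Smo (0.268), Rangrf (0.294) and Ptpn11 (0.314). All these profiles share the same 12 libraries, including those that stood apart, so likeness is a description only.

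The genes that work with these enzymes were taken from 6 lists, of which 74 distinct genes could be tested. In AD-HFD against Sham 28 of the 74 were called by edgeR, 18 higher and 10 lower. This was 37.8%, beside the 32.7% of all genes (19.7% higher and 12.9% lower). In AD against Sham 8 were called, 3 higher and 5 lower, or 10.8% beside 6.23% (3.07% higher and 3.16% lower). DESeq2 called 20 there, of which 12 were higher and 8 lower. Single lists were small, and their counts are a description beside these shares. The count of 28 was 18 without Sham-1 and 18 to 37 over the fits that left out 1 library, and 0 with Sham-2, Sham-3, AD-HFD-1 and AD-HFD-2 left out. That of 8 was 0 without AD-4 or Sham-1, 1 without Sham-3, 2 without Sham-2 or Sham-4, and 14, 15 and 16 without AD-HFD-4, AD-HFD-3 and AD-3. In AD-HFD against AD edgeR called 0, with 24 at an unadjusted p under 0.05 and 18 called by DESeq2. There edgeR called 26 without AD-HFD-3 and 28 without AD-3. These counts of AD-HFD against AD are a description too.

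Partners of lipoprotein lipase had 5 of 13 tested genes higher and 1 lower in AD-HFD against Sham (median log2 0.35). Over all genes 19.7% were higher and 12.9% lower there (median 0.03). Angptl4, a secreted inhibitor of lipoprotein lipase, stood at 69.4, 67.6, 39.4 and 196 CPM in AD-HFD-1 to AD-HFD-4, at 12.6, 16.0, 30.3 and 25.3 CPM in AD-1 to AD-4 and at 4.41, 4.73, 4.22 and 5.73 CPM in Sham-1 to Sham-4. The 3 groups did not overlap, and Angptl4 rose by 4.29 ± 0.49 in AD-HFD (adjusted p = 0.00112, edgeR) and by 2.14 ± 0.455 in AD (adjusted p = 0.0207). Angptl8, which acts on lipoprotein lipase with its relatives, rose by 4.22 ± 0.653 in AD-HFD from a low level, 1.13 ± 0.622 CPM in AD-HFD against 0.0569 ± 0.0424 CPM in Sham. The sorting receptor Sort1 fell in both groups, by 1.03 in AD-HFD and 0.94 in AD, and the protease Pcsk5 fell in AD (-1.33 ± 0.276). In AD, 1 partner rose and 2 fell (median 0.08). Gpihbp1, which anchors lipoprotein lipase on capillaries, was at no more than 0.887 CPM in any library and was too low to be tested.

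Lipid droplet proteins and regulators of lipolysis had 5 of 17 tested genes higher and 1 lower in AD-HFD against Sham (median 0.25). Over all genes 19.7% were higher and 12.9% lower there (median 0.03). The droplet coat gene Plin2 rose by 3.86 ± 0.69 (adjusted p = 0.00372, edgeR) to 159 ± 90.4 CPM in AD-HFD, against 10.9 ± 1.38 CPM in Sham (SD, n = 4 each). The coat gene Plin3 (2.62 ± 0.613), Hilpda (1.59 ± 0.373), whose protein inhibits adipose triglyceride lipase, and Abhd5 (1.17 ± 0.284), whose protein activates it, rose as well. In AD, 2 rose and 1 fell (median 0.24): Plin2 (2.64 ± 0.657) and Fitm2 (0.64 ± 0.133), which takes part in droplet formation, rose, and Dgat2 (-0.57 ± 0.141), an enzyme of triglyceride synthesis, fell. Plin2 reached 178 CPM in AD-3 against 19.1 to 54.1 CPM in the other AD libraries.

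Endocannabinoid genes had 1 of 12 higher and 3 lower in AD-HFD against Sham (median -0.31) and 2 lower in AD (median -0.19). Over all genes 19.7% were higher and 12.9% lower in AD-HFD, and 3.16% were lower in AD. Abhd6, a second hydrolase of the endocannabinoid that Mgll breaks down, was at 34.0, 25.1, 31.0 and 22.7 CPM in AD-HFD-1 to AD-HFD-4, at 39.6, 36.5, 17.6 and 32.1 CPM in AD-1 to AD-4 and at 59.3, 61.9, 55.9 and 67.5 CPM in Sham-1 to Sham-4. As with Mgll, no model library reached a Sham library, and Abhd6 fell in AD-HFD (-1.12 ± 0.227, adjusted p = 0.00556, edgeR) and in AD (-0.96 ± 0.227, adjusted p = 0.0304). Abhd12 (-0.43 ± 0.131), a further hydrolase, and Cnrip1 (-0.95 ± 0.268), whose protein binds the neuronal cannabinoid receptor, fell in AD-HFD, where the immune cell receptor Cnr2 rose (2.24 ± 0.507). Faah, whose enzyme breaks down N-acylethanolamines, fell in AD (-1.25 ± 0.312, adjusted p = 0.0383) but did not pass in AD-HFD (-0.71 ± 0.307, adjusted p = 0.0933). The difference between these Faah values is the AD-HFD against AD value, 0.54 ± 0.311, given as a description.

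**Figure D5:**
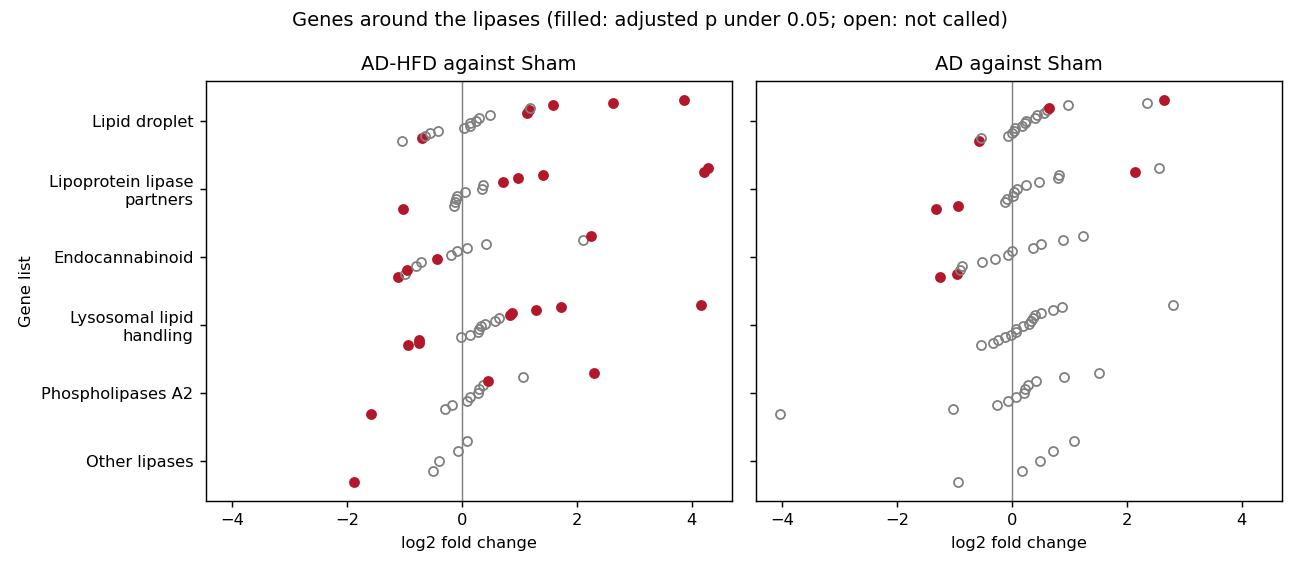
Log2 fold changes (horizontal axis) of the tested genes of 6 lists around the lipases (rows) in AD-HFD against Sham and in AD against Sham, 1 point per gene, filled where the adjusted p was under 0.05. Of 74 distinct genes 28 are filled in AD-HFD against Sham and 8 in AD against Sham.

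Lysosomal lipid genes had 5 of 16 higher and 3 lower in AD-HFD against Sham (median 0.36). Over all genes 19.7% were higher and 12.9% lower there (median 0.03). Soat1, which esterifies cholesterol, rose by 1.73 ± 0.302, Ch25h, a cholesterol hydroxylase next to Lipa in the RefSeq annotation, by 4.16 ± 0.805, and the cholesterol exporter Abca1 by 0.84 ± 0.199. In AD edgeR called 0 (5 at an unadjusted p under 0.05, 4 called by DESeq2; median 0.25), and the smallest p was that of Ch25h (2.80 ± 0.776, adjusted p = 0.0537). Among phospholipases A2, 2 of 11 rose and 1 fell in AD-HFD (median 0.28): Pla2g4a (2.30 ± 0.409), the relative of Pla2g4e that releases arachidonic acid, and Pla2g12a (0.45 ± 0.142) rose and Pla2g2c (-1.59 ± 0.534) fell. Pla2g4a stood at 24.3, 16.3, 10.1 and 51.5 CPM in AD-HFD-1 to AD-HFD-4 and at 4.55 to 5.88 CPM in Sham, the opposite direction to Pla2g4e. In AD edgeR called 0 phospholipases A2 (3 at an unadjusted p under 0.05, 2 called by DESeq2; median 0.20), and Pla2g3 had the smallest p (1.51 ± 0.526, adjusted p = 0.106).

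Of the other lipases only 5 of 17 in the table could be tested. Pnpla1, a relative of Pnpla2 known for its part in the skin barrier, fell in AD-HFD (-1.88 ± 0.434, adjusted p = 0.0091, edgeR; median of the 5 genes -0.40). In AD edgeR called 0 (4 at an unadjusted p under 0.05, 1 called by DESeq2; median 0.49), with the smallest p for the pancreatic lipase gene Pnlip (1.07 ± 0.372, adjusted p = 0.105). Pnlip was at 10.7, 11.2, 3.26 and 4.64 CPM in AD-1 to AD-4 and at 3.08 to 4.6 CPM in Sham. Activated microglia markers (8 genes) summed to 518 to 2130 CPM in AD-HFD, 407 to 1020 CPM in AD and 293 to 408 CPM in Sham, with the AD-HFD minimum in AD-HFD-3, and border macrophage and leukocyte markers (7 of 8 in the table) to 28.4 to 251 CPM in AD-HFD, 28.4 to 47.7 CPM in AD and 3.54 to 7.86 CPM in Sham. AD-HFD-3 was also the lowest AD-HFD library for Angptl4, Plin2, Soat1, Ch25h and Pla2g4a. The part of these cells in the values of the lists was not tested.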

How the data were processed

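The counts are raw gene counts in 1 table deposited by the authors, with rat Ensembl identifiers and symbols. TRIzol RNA was turned into mRNA libraries with a Yeasen kit, per the labels' protocols. The aligner, counter, strand setting and build are not given in the sources used here. Of the rows, 9127 are unnamed new loci, with 2.24% to 3.29% of the counts of a library, which stayed in library sizes and tests.

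Groups came from the library names. Counts were filtered with filterByExpr, scaled by TMM and fitted in edgeR 4.0.16 (R 4.3.3) with the non-legacy quasi-likelihood method and 1 mean per group over all 12 libraries. The fit was tested on simulated data. CPM use TMM-scaled library sizes, and the SE is the log2 fold change divided by the square root of F. Floors of 3 counts cover counting error only. Alternatives were DESeq2 1.42.0, limma voom (limma 3.58.1), the legacy method, other scalings and filters, a stricter threshold, the replicate block, the compared groups alone and fits with libraries left out. Leaving out Sham-2, Sham-3, AD-HFD-1 and AD-HFD-2 was chosen after seeing the data.

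The members, gene lists and markers were chosen with earlier results of these data known. From each list up to 4 called genes with the smallest p, or else the gene with the smallest p, are named, with a few others (Faah in AD-HFD, Gpihbp1, Lipk, Lipn, Lipf and Lipo1) chosen after their values were seen. Some items that this rule would name are not reported here. Genes nearest in profile were sought among 13146 genes. No pair of libraries of the same group agreed within sampling noise, and pairs across groups were not compared. Promoter sequences are from RefSeq (GRCr8), and no gene coordinates are given since the build of the counts is unknown.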

Additional observations from a re-analysis of the deposited data

Results flagged for a closer look

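Of 24 gene and group combinations examined for a library far from the other 3 of its group, 3 stood out, where chance flags about 1 in 20. Lipm was at 0.154 CPM in AD-3, the AD library that had any Lipm counts. With the other AD libraries tied at 0, any count would have stood out, so this value is no sign of an unusual library. Lipg was at 5.91 CPM in AD-3, against 0.0583 to 0.399 CPM in the other AD libraries. Pnpla2 was at 8.62 CPM in Sham-1, against 15.7 to 16.5 CPM in the other Sham libraries.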

How the results depend on the processing

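For the 7 lipases other than Lipm, the 3 called in AD-HFD against Sham were called in all alternatives but 1, with counts of 3 to 5 over the fits that left out 1 library. With Sham-2, Sham-3, AD-HFD-1 and AD-HFD-2 left out, the count was 0 in all 3 comparisons, and edgeR called 0 of 19522 genes in AD-HFD against Sham in that fit of 2 libraries against 2. The count of 1 in AD against Sham was 2 with DESeq2, with only the 2 groups compared and with AD-1, AD-2 and AD-4 left out, 3 with AD-HFD-3 and AD-HFD-4 left out, and 0 with the legacy method, RLE scaling, no filter, the filter at 1 CPM, the replicate block and the 0.01 threshold. It ran from 0 to 2 with 1 library left out. The count of 1 of 8 in AD-HFD against AD was 4 with DESeq2, 3 with AD-HFD-3 and AD-HFD-4 left out, and 0 with the legacy method, only the 2 groups compared, AD-1, AD-2 and AD-4 left out and the 0.01 threshold, and ran from 0 to 5 with 1 library left out. Over all genes DESeq2 called 3311 in this comparison in place of 2, and 2602 in AD against Sham in place of 1174. Among the tested values, those that changed sign were in AD against Sham: Lipg was -0.81 with limma voom and -1.93 without AD-3 (-1.93 to 1.59 with 1 library left out), and Pnpla2 was -0.28 with AD-1, AD-2 and AD-4 left out. In AD-HFD against AD, given without a test, the same 3 libraries left out changed the sign of Lipg (-1.27), Pnpla2 (1.18), Mgll (0.30) and Pla2g4e (0.30), and the values of Lipa, Pnpla2 and Mgll, close to 0, changed sign in other alternatives too. Where no cause is plain from fewer libraries, the cause was not tested. The labels state no pairing of same-numbered libraries. Correlations of their deviations from group means ran from -0.39 to 0.12, and 1, 0 and 3 of 8 libraries per comparison were closest to their own number. Since libraries also differed in region markers within groups, these values cannot tell whether a number marks a pairing or batch. With the replicate block Mgll in AD against Sham was -1.03 (adjusted p = 0.0637), and the block changed no other call of these genes. Depth limits Lipm most, since 3 counts already correspond to 0.0875 to 0.109 CPM.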
